A study of Danio rerio with 24 samples.

Results

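The comparison described here sets zebrafish embryos that received the RNA-targeting nuclease RfxCas13d as protein against embryos that received it as messenger RNA, with no guide RNA in either group. It rests on 4 of the 24 poly(A) RNA-seq libraries of a knock-down study, chosen by their labels: replicates 1 and 2 of Cas13d protein alone and replicates 1 and 2 of Cas13d mRNA alone, both from the second of 2 sets of libraries. The study injected embryos with Cas13d in one form or the other, with or without guide RNAs, and extracted total RNA from whole embryos 6 hours after injection. The Cas13d mRNA group received 200 to 250 pg of mRNA per embryo and the Cas13d protein group 3 ng of protein per embryo, so the groups differ in the molecule injected and in its mass. Neither group carried guides, a reporter mRNA or a named mutation, and the second set holds no uninjected group. Another pair of groups in the same set received the same doses of Cas13d mRNA or protein together with 500 to 600 pg of guides against szrd1, and serves below as a comparison that shares no library with the first. The remaining pair was labelled Cas13d protein with 40 pg of a gfp reporter mRNA, without or with dnd1 guides. It was used only, with the other libraries of the set, to choose the genes tested, to estimate the spread, for principal components and to give levels. The labels describe the fish facility's stock as transgenic and give for the second set no strain, no clutch, no number of embryos per library and no morphological stage, so the form of Cas13d cannot be told apart from the stage the embryos had reached or from the clutch they came from. The 2 libraries of a group are called replicates, and nothing is said of separate clutches. The p-values and standard errors rest on the spread between libraries of a group, estimated over the 6 groups of the set together. That spread was unequal. The median absolute log2 difference between replicates was 0.195 with Cas13d mRNA and 0.122 with Cas13d protein, and 0.108 to 0.211 over all groups of the set.

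Cas13 nucleases bind a guide RNA and cut RNA that matches it, and Cas13d is used in fish embryos, with its guides, to remove maternal transcripts that a genetic mutation in the embryo would leave in place. An egg is loaded with such maternal RNAs, which run the first cell divisions and are then degraded while the embryo's own genome is switched on by factors such as Nanog, Pou5f3 and Sox19b. During gastrulation, which follows, the germ layers are set up by Nodal, BMP, Wnt and FGF signals, the head and trunk fates of the neural plate are laid out along the axis, and an extraembryonic yolk syncytial layer begins to supply lipid from the yolk.

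The values are in TPM, a unit scaled for gene length in which each library sums to the same total, so a gene's value is a share of the library's transcripts per unit length. The deposited table gives no read counts, and the depth behind a value is unknown. Of 32521 rows, 14716 had a mean of at least 1 TPM over the 12 libraries of the second set and were tested with limma on log2(TPM + 1). A gene was called when its adjusted p was under 0.05 and its log2 fold change, always given as Cas13d protein minus Cas13d mRNA, was at least 1 in size. On this scale the change of low genes is understated. Replicates of one group correlated at 0.980 to 0.991 (Pearson's r across genes, which are not independent). The first principal component, with 62.1% of the variance, placed the Cas13d protein libraries at 75.7 and 79 and the Cas13d mRNA libraries at -33.6 and -32.7. The 4 libraries labelled with protein and reporter lay at -28.9 to -18.2, on the side of the mRNA libraries, while those of Cas13d protein with szrd1 guides lay at 48.4 and 48.5. For that reason the counts that lead each comparison are also given without those 4 libraries. The gene for red fluorescent protein, present at 205 to 1580 TPM in the first set, was at 0 in all 4 libraries compared here. In these bulk samples, fewer cells of a type and less RNA per cell cannot be told apart.

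Embryos given Cas13d protein differed from those given Cas13d mRNA in RNAs of both the egg and the gastrula. Most of the listed transcripts left over from the egg were lower. Many listed genes of the anterior neural plate, the paraxial mesoderm and the yolk syncytial layer were higher. Several rows of a list for the hatching gland and prechordal plate, some of them copies of a gene, were also higher. In all, 3228 of the 14716 genes tested were called (21.9%), 1636 of them higher in the protein group (11.1%) and 1592 lower (10.8%), around a median log2 fold change of 0.06 over all genes tested. At an unadjusted p under 0.05 the number was 8973, and without the 4 libraries labelled with protein and reporter 3275 genes were called. The numbers of genes at 1 TPM or more were alike in the groups, 14453 and 14164 with mRNA and 14324 and 14405 with protein. A set of 95 genes stood at 5 TPM or more in both protein libraries and under 1 TPM in both mRNA libraries, and 40 genes did the reverse. With 2 libraries against 2, the groups did not overlap in 77.8% of all genes tested and in 100% of the 3228 called, so a lack of overlap adds nothing to a call. Counts for a list of genes are set below beside the share of all genes called, which was 11.1% higher and 10.8% lower among genes tested and 6.77% higher and 5.99% lower in the fit without a filter.

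The gene that rose most among named genes of at least 5 TPM was hoxb1b, a homeobox gene that patterns the hindbrain. It stood at 0.11 and 0.1 TPM in the Cas13d mRNA libraries and at 78.3 and 94.1 TPM in the Cas13d protein libraries, which is 6.3 ± 0.19 on the log2 scale (SE; the adjusted p from limma was 6.09e-08). Both mRNA libraries were close to no transcript and both protein libraries were far above them. Beside hoxb1b, the 10 that rose most held 3 copies of ctslb, a cathepsin gene of the hatching gland, the forebrain gene fezf2, the border gene dlx3b, the fatty acid-binding protein gene fabp2, the growth factor gene mdkb, the cardiac actin gene actc1a and the mesenchymal transcription factor gene twist2. Of these, mdkb went from 1.31 and 3.6 TPM to 104 and 116 TPM and twist2 from 0.15 and 0.14 TPM to 28.6 and 33.8 TPM, with log2 fold changes of 5.09 ± 0.32 and 4.81 ± 0.27 (SE). The fold of actc1a is uncertain because the table lists a second copy, whose reads may be shared; the copy named here (ENSDARG00000042535) read 1.53 and 1.18 TPM and 60.2 and 78.7 TPM, and the other (ENSDARG00000076126) 0.5 and 2.02 TPM and 44.2 and 36 TPM. Both copies were higher in each protein library than in each mRNA library.

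The 10 named genes that fell most were mxtx2, sebox, ccna1, nanog, morc3b, mixl1, map1lc3c, mctp2b, gdf3 and rhoq. The leader, mxtx2, a homeobox gene of the yolk syncytial layer, read 36.4 and 22.4 TPM with mRNA and 0.09 and 0.55 TPM with protein, a log2 fold change of -4.51 ± 0.23 (SE, adjusted p 4.43e-07). It was plainly present in both mRNA libraries, at unequal levels, and nearly gone from both protein libraries. Of the less studied genes among the 10, morc3b went from 94.9 and 64.8 TPM to 3.58 and 4.16 TPM, map1lc3c, of the LC3 family of autophagy proteins, from 34.5 and 40 TPM to 2.15 and 2.58 TPM, mctp2b from 19.2 and 15.9 TPM to 0.66 and 0.61 TPM, and the small GTPase gene rhoq from 17.6 and 16.3 TPM to 0.82 and 0.54 TPM.

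**Figure D1:**
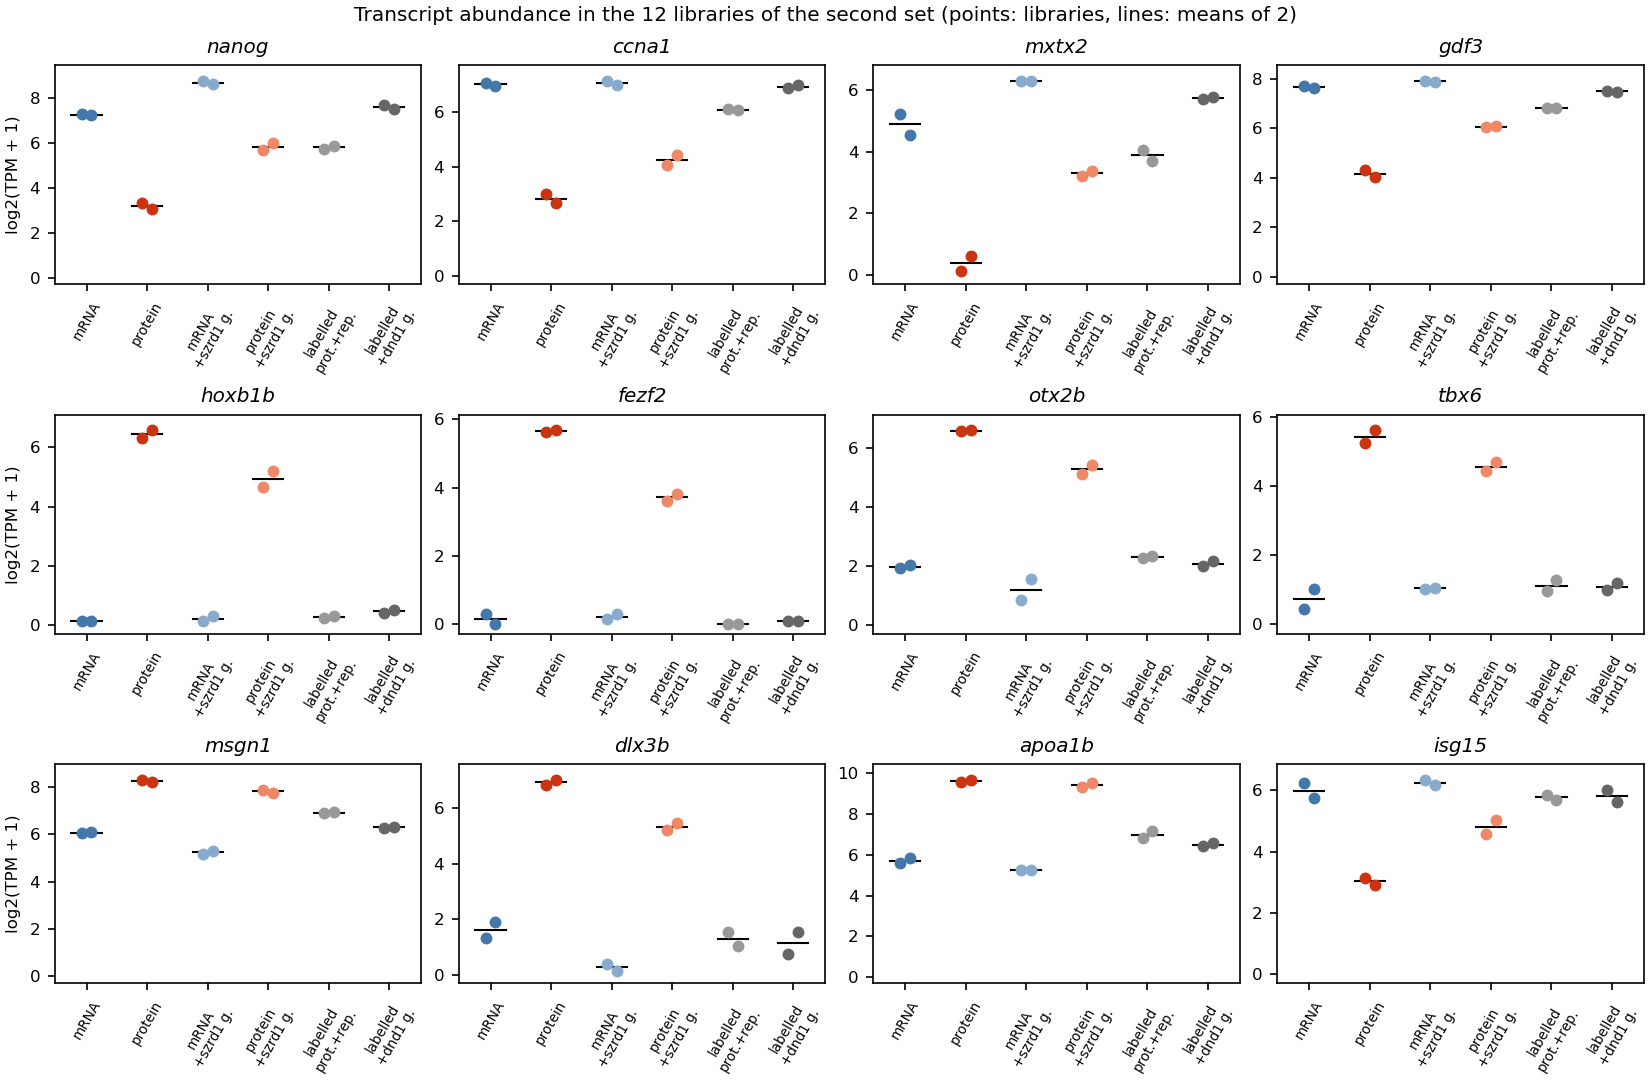
Transcript abundance, as log2(TPM + 1) on the vertical axis, of 12 genes in the 6 groups of the second set (g., guides; rep., reporter; points are libraries, black lines the means of 2). The Cas13d protein libraries have the lowest values of nanog, ccna1, mxtx2, gdf3 and isg15 and the highest of the other 7 genes, and those labelled with protein and reporter lie near the Cas13d mRNA libraries for hoxb1b, fezf2, otx2b, tbx6 and dlx3b.

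Most listed RNAs that the egg leaves behind were lower with Cas13d protein. Of 18 oocyte and egg RNAs, 17 were tested, and 16 of them fell and none rose, against 10.8% of all genes that fell; in the fit without a filter on low values, which takes in the 27087 genes above 0 in any library of the set, 16 of the 18 fell, against 5.99% of all genes, and their median was -1.8, against 0 over all genes. Medians over a list are from that fit throughout. Their summed level was 794 and 800.3 TPM in the mRNA libraries and 238 and 186 TPM in the protein libraries. ccna1, an A-type cyclin of oocytes and early embryos, stood at 132 and 123 TPM with mRNA and 6.93 and 5.37 TPM with protein, a log2 fold change of -4.18 ± 0.13 (SE, adjusted p 6.09e-08). The mitotic inhibitor kinase wee2 was at 44.2 and 45.2 TPM and 4.54 and 4.37 TPM, and the zinc finger gene cth1 at 65.4 and 53 TPM and 7.01 and 6.74 TPM. cldnd, a claudin of the egg and cleavage embryo, read 49.8 and 48.6 TPM with mRNA and 5.94 and 5.06 TPM with protein. All 4 genes were far higher in each mRNA library than in each protein library. The egg coat gene zp3a.1 was the tested member that was not called, at -0.86 ± 0.1 (SE).

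Germ plasm, the maternal material that specifies the germ line, is known in zebrafish by a small set of localised RNAs. Of 15 rows for germ plasm and germ cell genes 14 were tested, 7 fell and none rose, against 10.8% of all genes that fell. Without the filter the 7 were called among 15, against 5.99%, and the median was -0.91, against 0 over all genes. gra, a germ plasm transcript, was at 66.6 and 68.2 TPM with mRNA and 12.1 and 10.3 TPM with protein, a log2 fold change of -2.49 ± 0.12 (SE, adjusted p 4.2e-07). The RNA helicase gene ddx4 (vasa) stood at 127 and 89.5 TPM and 32.8 and 34.9 TPM, piwil1, which binds piRNAs, at 13.4 and 11.4 TPM and 2.2 and 2.73 TPM, and dazl, an RNA-binding protein gene, at 18.5 and 17.5 TPM and 4.41 and 3.93 TPM. All 4 remained detectable in the protein libraries. nanos3 and dnd1, which germ cells need to survive, were not called, with log2 fold changes of -0.77 ± 0.14 and -0.69 ± 0.17 (SE).

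The factors that open the zygotic genome did not move together. Among 9 maternal activators and coactivators, all tested, 4 fell and none rose, against 10.8% of all genes that fell, and the median was 0.12. nanog, a homeobox factor of genome activation, stood at 154 and 153 TPM in the mRNA libraries and at 8.93 and 7.25 TPM in the protein libraries, a log2 fold change of -4.09 ± 0.13 (SE, adjusted p 6.09e-08). pou5f3, its POU-domain partner, was at 1587 and 1385 TPM and 477 and 468 TPM, which is -1.65 ± 0.08 on the log2 scale (SE, adjusted p 3.15e-07). The T-box gene eomesa and the Nodal effector foxh1 also fell, by 2.43 and 1.06 on the log2 scale, whereas the activator gene sox19b was not called and read 34.7 and 34.3 TPM with mRNA and 65.3 and 64.8 TPM with protein.

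Genes of the blastula and early gastrula split. Of 23 such genes, all tested, 8 fell and 5 rose, beside 10.8% and 11.1% of all genes, with a median of -0.45. The paired-type homeobox gene sebox, expressed at the blastula margin, was at 33.8 and 26.7 TPM with mRNA and 0.5 and 0.49 TPM with protein, a log2 fold change of -4.38 ± 0.15 (SE, adjusted p 7.58e-08). mixl1 (bonnie and clyde), which endoderm needs, read 89.4 and 62.8 TPM and 4.3 and 4.42 TPM, and inka1a 135 and 107 TPM and 12.6 and 13.1 TPM. These genes were several times lower in each protein library than in each mRNA library. In the other direction the zinc finger gene znfl1k read 27.5 and 32.9 TPM with mRNA and 119 and 102 TPM with protein, and the Iroquois gene irx7 102 and 89.5 TPM and 224 and 234 TPM, with log2 fold changes of 1.84 ± 0.12 and 1.25 ± 0.1 (SE).

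Nodal ligands and their partners came next. Of 13 genes of the Nodal pathway, all tested, 4 fell and none rose, beside 10.8% of all genes that fell, with a median of -0.17. gdf3 (Vg1), the maternal ligand that pairs with Nodal, was at 204 and 194 TPM in the mRNA libraries and 18.8 and 15.4 TPM in the protein libraries, a log2 fold change of -3.47 ± 0.09 (SE, adjusted p 3.13e-08). The Nodal ligand gene ndr1 (squint) stood at 11.9 and 10.2 TPM and 0.6 and 0.41 TPM, while the other ligand, ndr2 (cyclops), was not called, at 0.47 ± 0.17. Both gdf3 and ndr1 were many times lower in each protein library than in each mRNA library. The type I receptor gene acvr1ba read 176 and 141 TPM with mRNA and 61.6 and 59.9 TPM with protein, -1.36 ± 0.12 on the log2 scale, and foxh1 fell as given above. The co-receptor tdgf1 (one-eyed pinhead) and the feedback inhibitors lft1 and lft2 were not called, with log2 fold changes of -0.92 ± 0.08, 0.05 ± 0.16 and 0.99 ± 0.2 (SE).

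For the BMP pathway, which sets ventral fates, 3 of 22 genes rose and 2 fell, all being tested, with a median of 0.09. These counts are near the background of 11.1% higher and 10.8% lower. Among the ligands bmp7a fell, from 172 and 174 TPM to 77.6 and 77.3 TPM (-1.15 ± 0.07 on the log2 scale, SE, adjusted p 1.43e-06), and bmp2b and bmp4 were not called, at -0.21 ± 0.1 and 0.09 ± 0.14. The secreted antagonist nog1 read 11.2 and 10.4 TPM with mRNA and 26.6 and 25.5 TPM with protein and was called higher, while chordin (chrd) was not called, at 0.79 ± 0.16. The inhibitory Smad gene smad6b was at 1.48 and 1.49 TPM and 8.23 and 10.5 TPM. The ventral repressor gene vent fell from 105 and 91.4 TPM to 39.1 and 39.5 TPM, and its relatives vox and ved were not called.

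Genes of the organizer, the dorsal signalling centre, and of the axial mesoderm that it forms went both ways. Of 19 rows 18 were tested, 6 rose and 3 fell, beside 11.1% and 10.8% of all genes, and the median over the 19 was 0.27. otx2b, a homeobox gene of the anterior neural plate and the prechordal plate, stood at 2.82 and 3.07 TPM with mRNA and 94.1 and 95 TPM with protein, a log2 fold change of 4.6 ± 0.21 (SE, adjusted p 2.96e-07). The secreted Wnt inhibitor frzb was at 11.9 and 9.61 TPM and 54.4 and 60.8 TPM, and foxa2, of the axial mesoderm and endoderm, at 19 and 15.2 TPM and 74.3 and 77.7 TPM. Against these, the LIM homeobox gene lhx1a fell from 69 and 43 TPM to 9 and 8.44 TPM and the Brachyury gene tbxta from 627 and 609 TPM to 304 and 280.2 TPM, -2.51 ± 0.19 and -1.08 ± 0.06 on the log2 scale (SE). The organizer gene gsc and the notochord gene noto were not called, at -0.81 ± 0.14 and -0.11 ± 0.11. In endoderm, of 12 rows 11 were tested, 2 rose and 2 fell, with a median of -0.27, each count being close to the background; sox17 rose from 5.73 and 3.41 TPM to 18.5 and 17 TPM, and sox32, which acts upstream of it, was not called, at -0.4 ± 0.13.

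The hatching gland comes from the prechordal plate, and its cells later secrete the enzymes that digest the chorion. The list for both tissues together gave some of the largest rises. The 12 listed genes had 15 rows, so copies of a gene were counted separately. Of the 15 rows 11 were tested, 8 rose and none fell. Without the filter 7 of the 15 were called higher, against 6.77% of all genes so fitted, and the median was 1.1. The hatching enzyme genes he1.1, he1.2 and he1.3 were below the filter and under 1 TPM in the libraries of both groups. The 3 copies of ctslb among the top genes stood at 3.31 and 0 TPM, 0 and 0 TPM and 0.4 and 0 TPM with mRNA (ENSDARG00000087651, ENSDARG00000095072 and ENSDARG00000039173) and at 133 and 179 TPM, 48.3 and 54.8 TPM and 29.8 and 36.1 TPM with protein. Near-identical copies can trade reads, so the value of each copy is uncertain. Every copy named was listed at 0 in at least 1 mRNA library. These copies were named for being among the largest rises without overlap, so their higher values with protein were fixed by that choice. otx1 rose from 24.6 and 21.8 TPM to 161 and 166 TPM. The related cathepsin gene ctsla, by far the most abundant member, was not called and read 3675 and 3113 TPM with mRNA and 2338 and 2273 TPM with protein. Because of it the summed level of the list was 4133 and 3547 TPM in the mRNA libraries and 3042 and 3032 TPM in the protein libraries.

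Many genes of the paraxial mesoderm, which gives the somites, were higher with Cas13d protein. Of 27 rows for this tissue and the somite clock 25 were tested, 15 rose and 1 fell, against 11.1% of all genes that rose; without the filter 15 of the 27 rose, against 6.77%, and the median was 1.33. The T-box gene tbx6 was at 0.34 and 1.02 TPM in the mRNA libraries and 37.2 and 48.3 TPM in the protein libraries, a log2 fold change of 4.72 ± 0.23 (SE, adjusted p 3.72e-07). The myogenic factor gene myf5 stood at 1 and 0.74 TPM and 21.4 and 23.3 TPM, the forkhead gene foxc1a at 11.2 and 9.54 TPM and 73.4 and 79.2 TPM, and msgn1, a presomitic factor downstream of Wnt, at 65.3 and 66.5 TPM and 311 and 297 TPM. Of these, tbx6 and myf5 were near 1 TPM or below in the mRNA libraries and msgn1 was already well expressed there. The clock genes her1 and her7 were not called, her7 at -0.43 ± 0.09. The member that fell was tbx16 (spadetail), which passed the fold limit narrowly at -1.0 ± 0.09 and was no longer called under quantile normalization or without mRNA replicate 1 or protein replicate 1, at -0.97, -0.85 and -1.0.

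Among posterior patterning genes rises outnumbered falls. Of 17 rows for the retinoic acid pathway and the caudal (cdx) genes 11 were tested, 8 rose and 1 fell, beside 11.1% and 10.8% of all genes; without the filter 9 of the 17 rose and 1 fell, beside 6.77% and 5.99% of all genes, and the median was 1.14, against 0. The caudal gene cdx1a was at 1.86 and 2.79 TPM with mRNA and 51.7 and 50 TPM with protein, a log2 fold change of 3.98 ± 0.18 (SE, adjusted p 2.59e-07). cdx4 stood at 136 and 135 TPM and 565 and 549 TPM. In the retinoic acid pathway cyp26a1, which degrades the ligand, rose from 119 and 111 TPM to 399 and 375 TPM and dhrs3b, a retinaldehyde reductase gene, from 27.9 and 24.4 TPM to 94 and 106 TPM.

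Hox genes, the homeobox factors that give axial identity, were mostly at or near 0 in every library. Of 48 Hox rows only 5 passed the filter, and all 5 rose; in the fit without a filter 10 of 47 rows above 0 rose, against 6.77% of all genes, and none fell, with a median of 0.15. Their summed level was 2.35 and 3.5 TPM in the mRNA libraries and 119.9 and 146 TPM in the protein libraries, most of it hoxb1b. Outside the groups of Cas13d protein alone and Cas13d protein with szrd1 guides, the sum was 2.25 to 5.55 TPM per library. Hox rows thus passed the filter almost only through those groups. That all 5 tested rows rose was therefore close to fixed by the filter. Among Hox rows below the filter hoxb8a was listed at 0 in both mRNA libraries and at 3.25 and 2.89 TPM in the protein libraries. hoxb9a, also a posterior gene, went from 0.13 and 0 TPM to 2.61 and 2.8 TPM.

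Many genes of the anterior neural plate, which forms the forebrain and eyes, were higher with Cas13d protein. Of its 20 rows, 12 passed the filter and all 12 rose; without the filter 12 of the 19 rows above 0 rose, against 6.77% of all genes, none fell, and the median was 1.73. fezf2, a zinc finger gene of the forebrain, stood at 0.21 and 0 TPM in the mRNA libraries and 48.4 and 50.4 TPM in the protein libraries, a log2 fold change of 5.52 ± 0.17 (SE, adjusted p 6.09e-08). The Six-family homeobox gene six7 was at 2.34 and 1.44 TPM and 39.2 and 43.3 TPM, the zinc finger gene zic1 at 0.54 and 0.29 TPM and 17.8 and 22.9 TPM, and the eye field gene rx3 at 0.13 and 0 TPM and 11.7 and 16.2 TPM. All 4 genes were under 3 TPM with mRNA and over 11 TPM with protein. Genes this low with mRNA can pass the filter through the protein libraries, which favours rises among tested rows. The list's summed level was 170.1 and 142 TPM with mRNA and 751 and 791 TPM with protein.

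Farther back, and in later neural stages, fewer genes were measurable. For midbrain, hindbrain and spinal cord 7 of 19 rows were tested, 4 rose and none fell; without the filter 6 of the 19 rose, against 6.77% of all genes, with a median of 0.31. gbx1, of the hindbrain territory, was at 5.93 and 6.6 TPM with mRNA and 41.3 and 45.5 TPM with protein, and olig4, a neural plate gene, at 3.84 and 2.4 TPM and 13.5 and 16.8 TPM. Of 25 rows for neural progenitors and neurons 11 were tested, 2 rose and 2 fell, beside 11.1% and 10.8% of all genes. Without the filter 4 of the 25 rose and 2 fell, beside 6.77% and 5.99%, with a median of 0.28. The Hairy-related gene her9 rose from 6.5 and 4.86 TPM to 65 and 70.8 TPM and the Delta ligand gene dla from 2.1 and 2.83 TPM to 19.3 and 22.6 TPM, 3.38 ± 0.2 and 2.67 ± 0.18 on the log2 scale (SE). Of the SoxB1 genes that mark early neurectoderm, sox3 fell from 539 and 527 TPM to 203 and 189 TPM (-1.44 ± 0.06, SE), and sox2 and sox19a were not called, at -0.13 ± 0.09 and -0.56 ± 0.05.

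Several genes of the border of the neural plate, from which neural crest and placodes arise, were also higher. Of 26 rows 13 were tested, 7 rose and 1 fell; without the filter 8 of the 26 rose and 1 fell, beside 6.77% and 5.99% of all genes, with a median of 0.51. dlx3b, a placode and border gene, stood at 1.55 and 2.75 TPM with mRNA and 113 and 129 TPM with protein, a log2 fold change of 5.3 ± 0.29 (SE, adjusted p 6.43e-07). prdm1a, which neural crest needs, was at 3.84 and 2.61 TPM and 42.9 and 48.8 TPM, and the homeobox gene msx1b at 15.6 and 18.8 TPM and 102 and 101 TPM. twist1a, a mesenchyme gene, was listed at 0 in both mRNA libraries and at 25 and 28.3 TPM in the protein libraries. The fall was in snai2, from 54.9 and 53.1 TPM to 4.47 and 3.86 TPM (-3.41 ± 0.13, SE), and the crest specifier foxd3 was not called, at -0.69 ± 0.14.

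Among surface tissues the difference was mixed. Of 22 rows for epidermis and the enveloping layer 21 were tested, 5 rose and 3 fell, beside 11.1% and 10.8% of all genes, and the median over the 22 was 0.17. The keratin gene cyt1 stood at 549.9 and 556 TPM with mRNA and 1341 and 1469 TPM with protein, its relative cyt1l at 224 and 238 TPM and 692 and 711 TPM, and tp63, a basal epidermis factor, at 1.69 and 2.99 TPM and 13 and 14.4 TPM. The keratin genes were abundant in both groups, and tp63 was low with mRNA. The adhesion gene epcam fell from 1367 and 1194 TPM to 550.1 and 535 TPM, the Grainyhead-like gene grhl3 from 210.1 and 213 TPM to 77.5 and 75.7 TPM and the claudin gene cldna from 11.3 and 7.29 TPM to 0.74 and 0.74 TPM. Of 18 rows for blood, vessel, heart and kidney 7 were tested, 1 rose and 2 fell, beside 11.1% and 10.8% of all genes. Without the filter 2 of the 18 rose and 2 fell, beside 6.77% and 5.99%, with a median of -0.08. Among the falls, drl, of the lateral mesoderm, went from 133 and 104 TPM to 32.6 and 25.6 TPM.

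Many genes by which the yolk syncytial layer packs and exports lipid were higher. Of 22 rows 16 were tested, 10 rose and none fell; without the filter 12 of the 22 rose, against 6.77% of all genes, and the median was 1.21. The apolipoprotein gene apoa1b was at 46.9 and 56.8 TPM in the mRNA libraries and 746 and 806 TPM in the protein libraries, a log2 fold change of 3.88 ± 0.13 (SE, adjusted p 7.58e-08), and apoa1a at 58.2 and 56.9 TPM and 625 and 697 TPM. The fatty acid-binding protein gene fabp1b.1 stood at 20.9 and 19.3 TPM and 209.7 and 219.6 TPM, and fabp2, from the genes that rose most, at 0.51 and 0 TPM and 40.4 and 44.8 TPM. The apolipoproteins were thus already expressed with mRNA, and fabp2 was at or below 1 TPM there. The fibronectin gene fn1b went from 1.34 and 2.28 TPM to 23.5 and 25.7 TPM. mxtx2, an early regulator of this layer, is not among the 22 rows, so the count of none that fell leaves it out. It was among the genes that fell most, as given above.

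**Figure D2:**
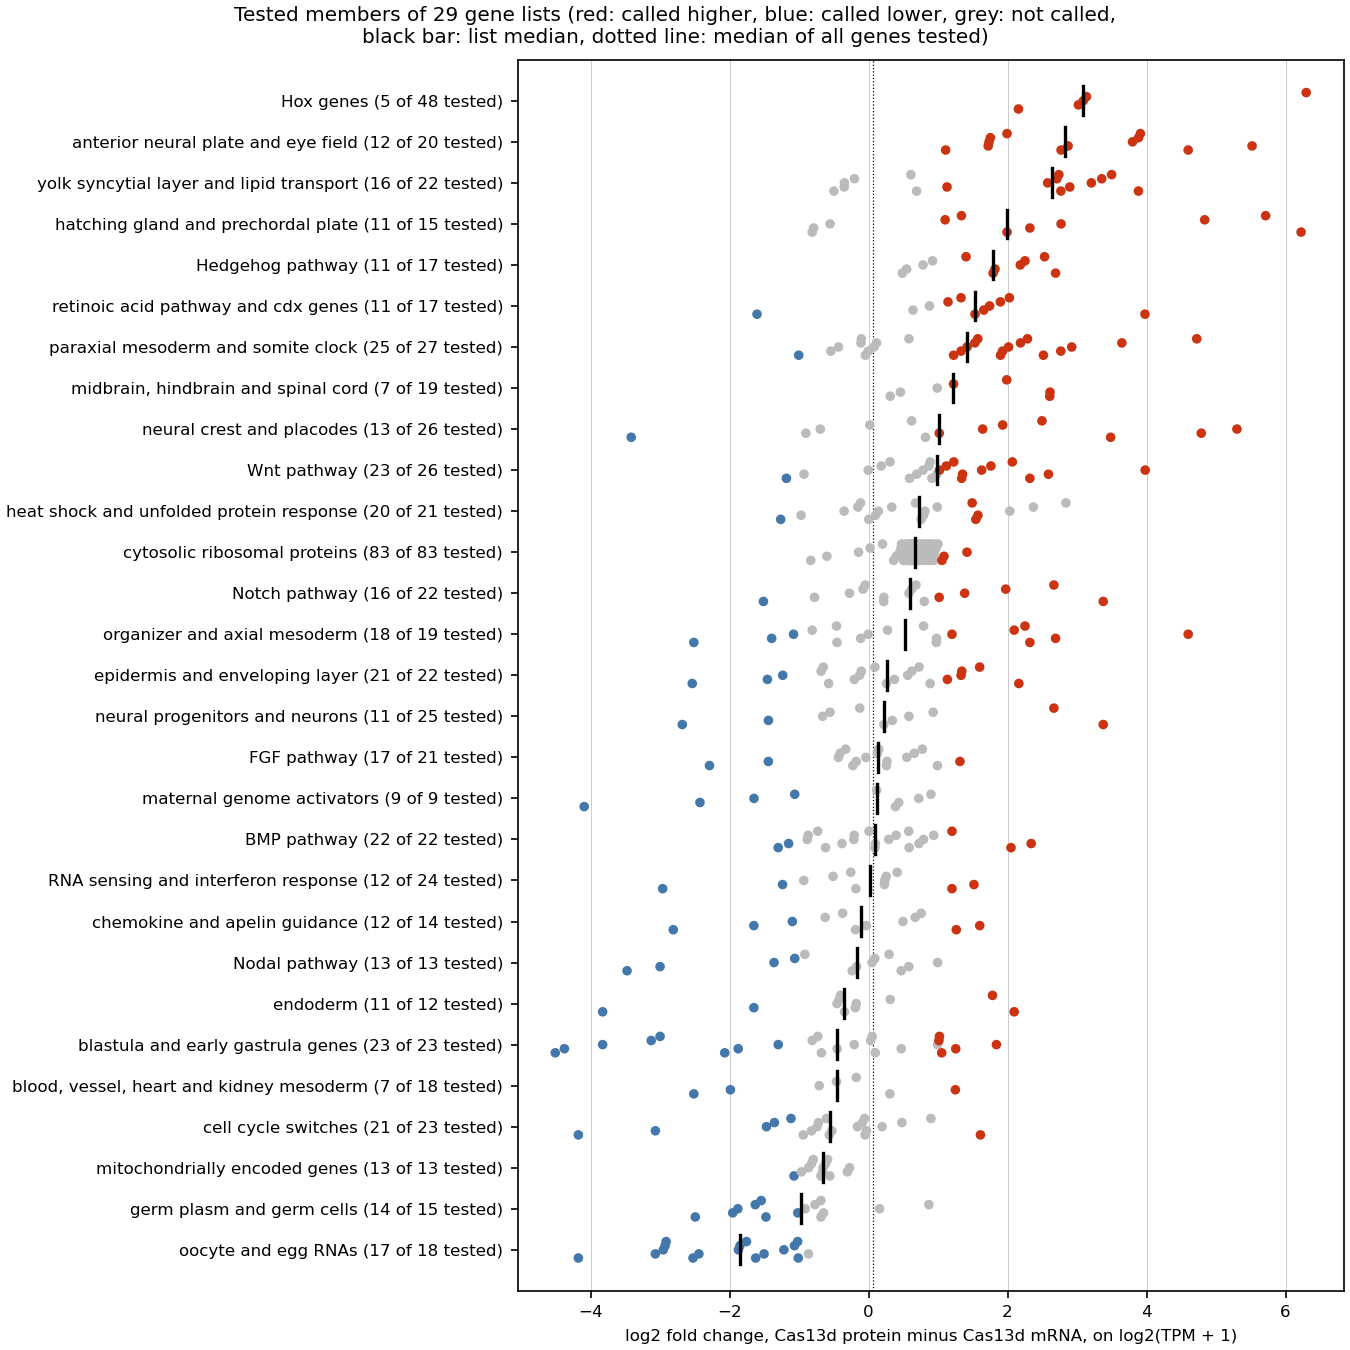
Log2 fold change of Cas13d protein minus Cas13d mRNA on log2(TPM + 1), horizontal axis, for the tested members of 29 gene lists; each point is a gene, coloured by its call, and black bars are medians over the tested members. The oocyte and egg list and the mitochondrial list lie wholly below 0, the Hox, anterior neural plate, midbrain to spinal cord and Hedgehog lists wholly above it, and the other signalling pathways spread over both sides. Members below the filter are not shown, and in the lists wholly above 0 some of them read lower with protein. Members low with mRNA can pass the filter through the protein libraries.

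Signalling pathways beyond Nodal and BMP were described in the same way. For Wnt, 23 of 26 rows were tested, 11 rose and 1 fell, beside 11.1% and 10.8% of all genes, and the median over the 26 was 0.95. The ligand wnt8a has 2 rows in the table whose reads may be shared: the more abundant (ENSDARG00000078507) read 50.2 and 65.7 TPM with mRNA and 258 and 231 TPM with protein, and the other (ENSDARG00000052910) 6.07 and 1.11 TPM and 56.1 and 64.1 TPM. Both wnt8a rows were higher in each protein library than in each mRNA library, and the less abundant row varied between the mRNA replicates. The transcription factor gene tcf7 went from 1.01 and 1.14 TPM to 9.62 and 13.6 TPM, while the non-canonical ligand wnt11 and the feedback target axin2 were not called, at -0.93 ± 0.11 and 0.91 ± 0.08. For Hedgehog 11 of 17 rows were tested, 7 rose and none fell; without the filter 7 of 17 rose, against 6.77% of all genes, with a median of 0.92, and the pathway's transcription factor genes gli1 and gli2a read 3.3 and 2.08 TPM and 5.69 and 5.02 TPM with mRNA and 12 and 11.7 TPM and 15.07 and 16.5 TPM with protein. For Notch 16 of 22 rows were tested, 5 rose and 1 fell, beside 11.1% and 10.8% of all genes. Without the filter 8 of the 22 rose and 1 fell, beside 6.77% and 5.99%, with a median of 0.61. The receptor notch2 rose from 2.04 and 1.66 TPM to 9.34 and 11.1 TPM. The target her6 rose from 33.8 and 34.4 TPM to 88.7 and 92.5 TPM, and the target hey1 fell from 11.8 and 13.5 TPM to 3.88 and 3.68 TPM.

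Of 21 rows for FGF genes 17 were tested, 1 rose and 2 fell, and the median over the 20 rows above 0 was 0.14. Over all genes tested 21.9% were called, so the FGF count lies near the background. The ligand genes fgf3 and fgf17 fell, from 26.5 and 17.5 TPM to 3.48 and 3.76 TPM and from 30.7 and 24.6 TPM to 10.1 and 8.91 TPM, and fgf8a was not called, at 0.77 ± 0.13. The mRNA replicates of fgf3 lay farther apart than the protein replicates. Of 14 rows for chemokine and apelin guidance of migrating cells 12 were tested, 2 rose and 3 fell, beside 11.1% and 10.8% of all genes, with a median of -0.11. The receptor genes cxcr4b and cxcr4a fell, cxcr4b from 243 and 218 TPM to 35.3 and 28.9 TPM (-2.81 ± 0.13, SE) and cxcr4a from 189 and 183 TPM to 63.6 and 53.9 TPM (-1.65 ± 0.09, SE). Their ligand gene cxcl12b rose from 21.7 and 15.2 TPM to 57.2 and 56.9 TPM, and the other ligand gene, cxcl12a, was not called, at 0.76 ± 0.11.

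Among genes of growth, of 23 cell cycle rows 21 were tested, 1 rose and 5 fell, beside 11.1% and 10.8% of all genes, and the median over the 23 was -0.53; beside ccna1 and wee2, the cyclin genes ccne1 and ccnb2 fell from 264 and 247 TPM to 95.5 and 87.9 TPM and from 209 and 203 TPM to 76.9 and 83 TPM, and mycn rose from 38.8 and 38.3 TPM to 112 and 128 TPM. Cytosolic ribosomal protein genes took 6.88% and 7.2% of TPM in the mRNA libraries and 11.5% and 11.1% in the protein libraries. Of the 83, all tested, 3 were called higher and none lower, beside 11.1% and 10.8% of all genes, with a median of 0.67. The gene that rose most, rpl5a, went from 335 and 332 TPM to 888 and 896 TPM. Both counts lay below the background, while the share of TPM was higher in each protein library. The 13 mitochondrially encoded genes took 7.61% and 8.98% with mRNA and 4.92% and 4.89% with protein. Of these 1 was called lower, mt-nd6, at -1.07 ± 0.25 on the log2 scale, beside 10.8% of all genes. Its change was -0.83 without mRNA replicate 2 and -0.96 without protein replicate 2, both short of the fold limit.

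Of 24 rows for RNA sensing and the interferon response 12 were tested, 2 rose and 2 fell, near the background of 11.1% and 10.8%, with a median of -0.01 over the 24. Among them isg15, a ubiquitin-like protein induced by interferon, read 74.2 and 52.9 TPM in the mRNA libraries and 7.82 and 6.57 TPM in the protein libraries, a log2 fold change of -2.96 ± 0.2 (SE, adjusted p 2.45e-06). The level of isg15 was several times higher in each mRNA library than in each protein library. Of 21 rows for heat shock and the unfolded protein response 20 were tested, 3 rose and 1 fell, beside the same background. Without the filter 2 of the 21 rose and 1 fell, with a median of 0.68. The median over tested rows was 0.72 without guides and 0.05 with szrd1 guides. The endoplasmic reticulum chaperone gene hspa5 rose from 63.2 and 51.7 TPM to 162 and 175 TPM. The stress-induced factor gene ddit3, whose mRNA replicates lay apart, rose from 7.77 and 3.66 TPM to 16.4 and 17.5 TPM. The chaperone gene calr fell from 30.1 and 23.7 TPM to 10.8 and 10.3 TPM.

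The same contrast could be read in embryos that also received szrd1 guides, from 4 other libraries. The guides' target was checked first: szrd1 stood at 423 and 425 TPM with Cas13d mRNA and 54.6 and 71.8 TPM with Cas13d mRNA and guides, and at 260.5 and 268 TPM with Cas13d protein and 45.3 and 36.3 TPM with protein and guides. With the guides, 2584 genes were called between protein and mRNA (17.6%), 1415 higher (9.62%) and 1169 lower (7.94%); without the 4 libraries labelled with protein and reporter the number was 2601. Of the genes higher without guides 66.4% were also higher with szrd1 guides, which is 76.8% of those higher with the guides. Of the genes lower without guides 55.6% were also lower with them, or 75.7% of those lower with the guides. There were 3 genes with opposite calls. Across the 14716 genes the log2 fold changes correlated at 0.849 (Pearson's r, given as a description; the comparisons share no library, but they share the set and the spread estimate). Of the 3228 genes called without guides 3169 had the same sign with szrd1 guides, and 2461 had the same sign and a smaller size. Genes picked for passing a fold limit in one comparison tend to be smaller in another; of the 2584 called with szrd1 guides, 2539 had the same sign without guides and 1275 of them were smaller there.

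The difference between both contrasts of protein minus mRNA, called effects below for short, was tested directly. It was called in 153 genes (1.04%): 39 had the more positive effect without guides (0.265%) and 114 the more negative (0.775%), and in 117 of the 153 the effect without guides was the larger in size. At an unadjusted p under 0.05 the number was 2638. This number rested on few libraries: it was 31 without the 4 libraries labelled with protein and reporter, 84 and 46 without protein replicate 1 or 2, and 80 without replicate 1 of protein with szrd1 guides. fezf2 stood at 0.21 and 0 TPM and 48.4 and 50.4 TPM without guides and at 0.1 and 0.22 TPM and 11.3 and 13.1 TPM with them, a difference of 2.02 ± 0.23 on the log2 scale (SE, adjusted p 0.00504). Its rise with protein was therefore present in both pairs of groups and smaller with the guides. dazl, which fell without guides, was at 36.4 and 42.3 TPM with mRNA and guides and 34.8 and 39.1 TPM with protein and guides, where it was not called, a difference of -1.79 ± 0.22 (SE, adjusted p 0.00693). gdf3 read 238 and 232 TPM and 65.6 and 66.3 TPM with the guides, a difference of -1.66 ± 0.12 (SE, adjusted p 0.000903). Effects for apoa1b, cdx4 and msgn1 were larger in value with the guides, at 4.18 ± 0.13, 2.84 ± 0.15 and 2.56 ± 0.07, but their differences were not called, with adjusted p of 0.452, 0.0858 and 0.103.

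**Figure D3:**
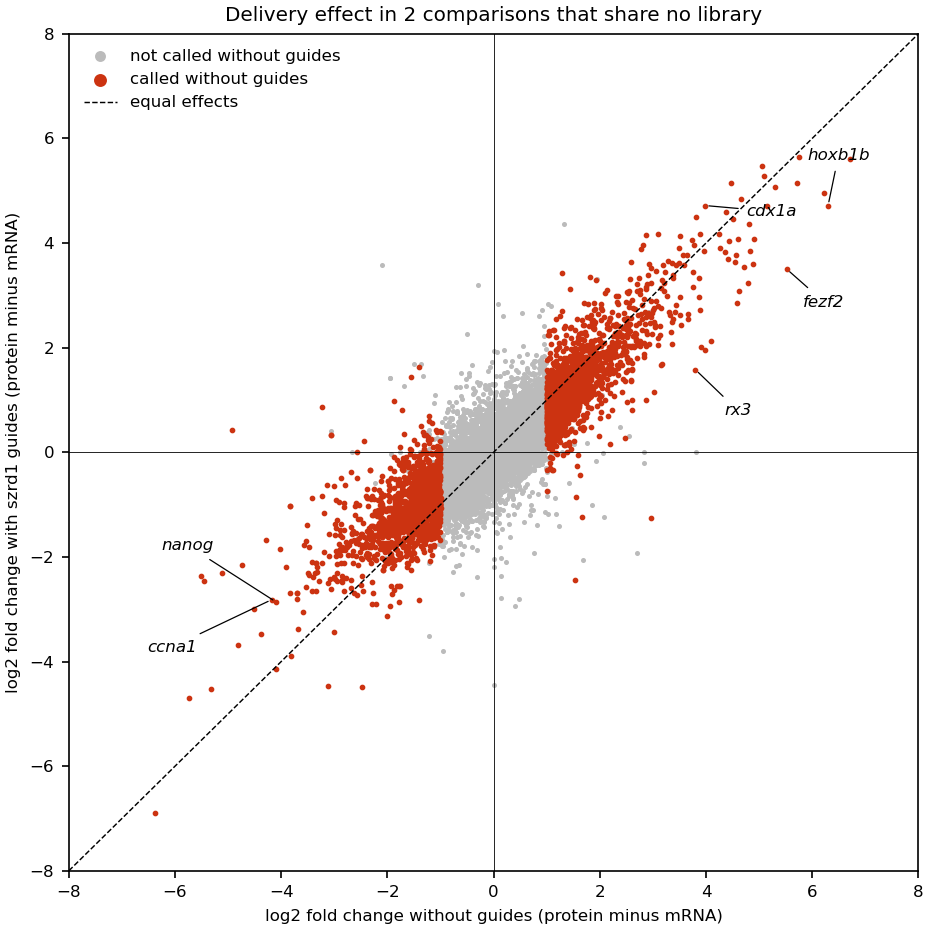
Log2 fold change of Cas13d protein minus Cas13d mRNA without guides (horizontal axis) and with szrd1 guides (vertical axis) for the 14716 genes tested; red points are the 3228 genes called without guides and the dashed line marks equal effects. Most called genes lie in the same quadrant on both axes, and hoxb1b, fezf2, rx3, nanog and ccna1 lie on the side of the larger effect without guides.

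The levels of 2 lists were ordered across the groups of the second set. The summed oocyte and egg RNAs were highest with Cas13d mRNA and szrd1 guides, at 942 and 1010.1 TPM, followed by the pair with a label of protein, reporter and dnd1 guides at 834 and 812 TPM. Cas13d mRNA came next at 794 and 800.3 TPM, its mean 25.6 TPM lower, where the replicates with dnd1 guides lay 22.1 TPM apart, and then the libraries labelled protein with reporter at 641 and 639 TPM. Protein with szrd1 guides was lower, at 388 and 374 TPM, and Cas13d protein alone lowest of the 6 groups. For the anterior neural plate Cas13d protein stood at 751 and 791 TPM and protein with szrd1 guides at 383 and 453 TPM. The other 4 groups, at 120 to 174 TPM, were far below both. Among them the mean of Cas13d mRNA differed from its neighbours in the order by 17 and 6.74 TPM, less than the 28.4 TPM between its own replicates. Uninjected embryos exist only in the first set, another set of libraries, with RFP transcripts. Side by side, their oocyte and egg RNAs summed to 1464 and 1636 TPM. Their anterior neural plate genes summed to 105 and 96.2 TPM and their Hox genes to 2.6 and 3.33 TPM. Embryos given Cas13d mRNA alone in that first set were close to them, with egg RNAs at 1538 and 1314 TPM. Anterior neural plate genes stood there at 112.1 and 111.8 TPM and Hox genes at 3.58 and 3.43 TPM. These levels were not tested against the second set. Of the 6 groups shown, Cas13d protein thus had the lowest egg RNAs and the highest anterior neural and Hox transcripts in both of its libraries.

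**Figure D4:**
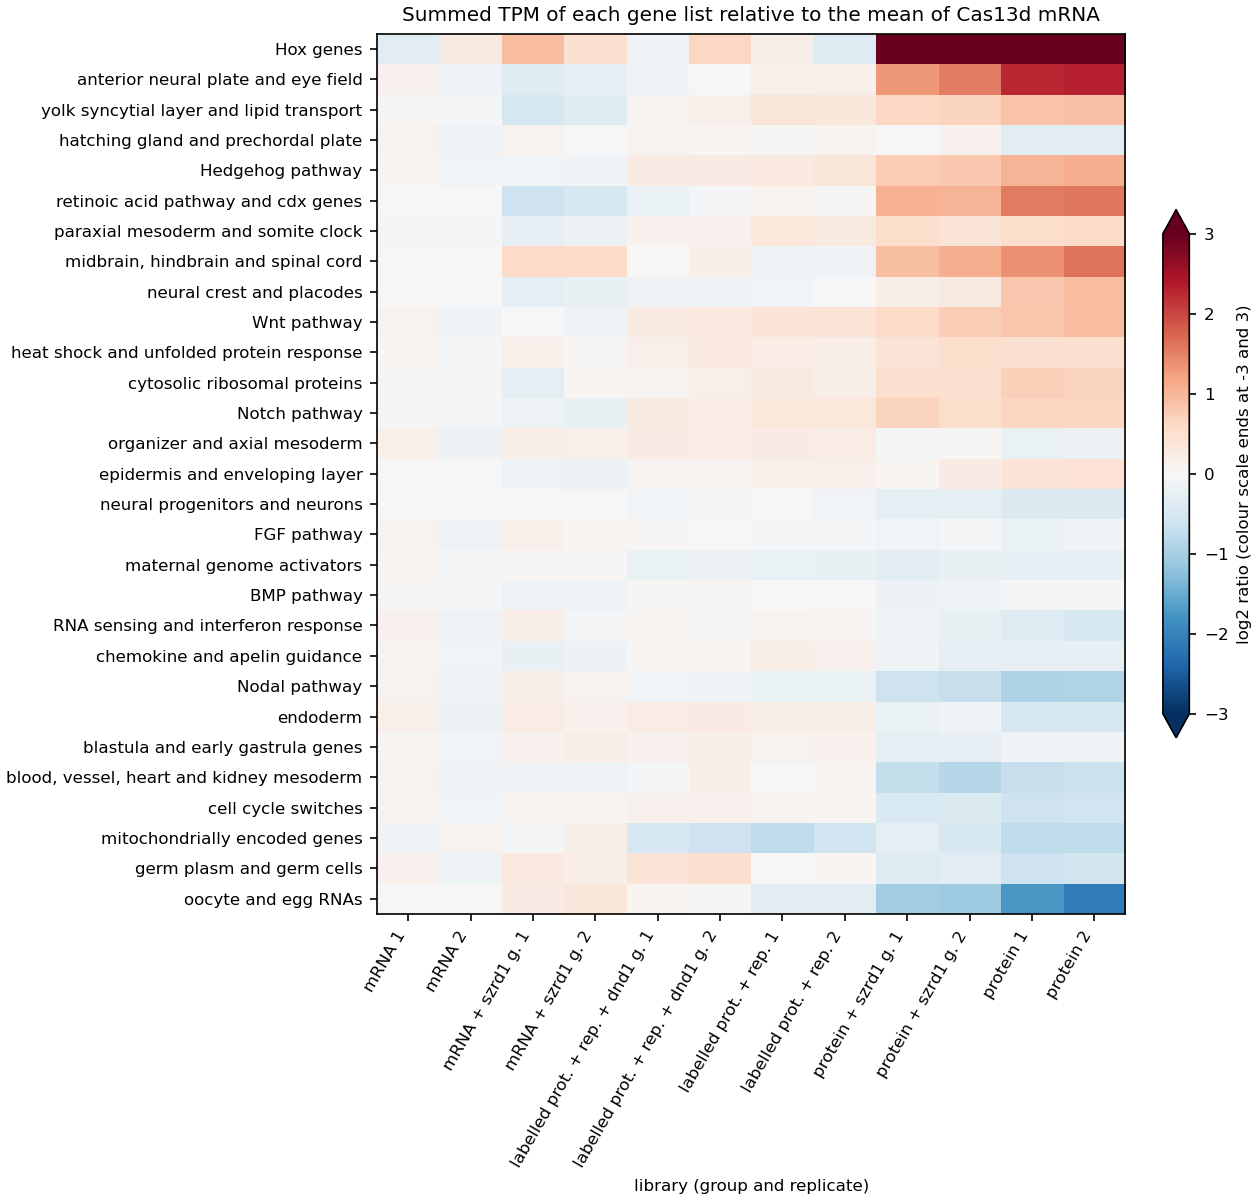
Summed TPM of each of the 29 gene lists in the 12 libraries of the second set, as a log2 ratio to the mean of the 2 Cas13d mRNA libraries (colour scale from -3 to 3; Hox genes in the protein libraries lie beyond it; g., guides; rep., reporter). For oocyte and egg RNAs the Cas13d protein libraries, at the right, have the deepest blue, and for anterior neural genes the deepest red. In both lists the libraries of protein with szrd1 guides lie between them and the rest. For Hox genes the protein libraries without and with szrd1 guides are both beyond the scale, so their colours do not rank them.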

How the data were processed

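Poly(A) RNA from whole embryos was prepared from 500 ng of total RNA with a stranded mRNA kit and sequenced as 75 base single reads, per the labels' protocols. The deposited table holds TPM per gene, which the authors made; the submitters' processing notes name bcl2fastq 2.18, STAR 2.6.1c, RSEM and danRer11, and the strand setting of the counting is not given in the sources used here. TPM keeps no depth, so no interval or limit from counts can be given. From these values log2(TPM + 1) was computed for the 12 libraries of the second set, genes under a mean of 1 TPM were left out, and limma 3.58.1 (R 4.3.3) was fitted to 6 groups of 2 with a trended variance prior. P-values were adjusted over all 14716 genes by the Benjamini-Hochberg method. Called means an adjusted p under 0.05 and a log2 fold change of at least 1 in size. The script was tested on simulated data.

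Groups come from the labels. Members, comparisons and the 29 gene lists were chosen with earlier results of these data known, so no list is independent evidence. Genes are named as the 10 largest rises and 10 largest falls of called genes with a mean of at least 5 TPM and no overlap of replicates, as up to 4 called members per list and direction, or as list members that did not pass. szrd1, the second copy of actc1a, rx3 and the genes below the filter were named after their values were seen, and list medians without a filter and the fits without the libraries labelled protein with reporter were added after seeing the data. The alternatives were other pseudocounts, filters, scalings, library sets, variance models and call rules, and a replicate block. Each library of the pairs without guides and with szrd1 guides was also left out in turn. Cas13d RNA was not analysed here, and a few results are not reported here.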

Additional observations from a re-analysis of the deposited data

Results flagged for a closer look

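Of 130 gene rows named above, 21 (16.2%) had a change between protein and mRNA that differed between embryos without guides and embryos with szrd1 guides. The limma test of the difference itself was used (adjusted p under 0.05 and at least 1 in size), and it called 153 of all 14716 genes (1.04%). The named genes are not a fair sample of all genes: 10 of the 21 were named for having the largest effects without guides, a choice that favours a larger effect there. The others were list members called without guides and picked by the size of their change there, or, for rx3, named after its value was seen. That choice has the same bias. Over all genes the count fell from 153 to 31 without the 4 libraries labelled with protein and reporter, and 8 of the 21 were still called then: fezf2, morc3b, map1lc3c, gdf3, cldnd, dazl, cxcr4b and cxcr4a. Differences are given as the effect without guides minus the effect with szrd1 guides, on the log2(TPM + 1) scale.

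The effect was more positive without guides in 6 of the 21, against 39 of all genes. These were rx3 by 2.22, fezf2 by 2.02, zic1 by 1.90, olig4 by 1.68, hoxb1b by 1.59 and twist1a by 1.54. All 6 had a higher fitted level in the protein group of each pair. Without guides they were called higher, and olig4 was not called with szrd1 guides.

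The effect was more negative without guides in the other 15, against 114 of all genes. Of listed egg and germ plasm RNAs, dazl differed by -1.79, cldnd by -1.66, ccna1 by -1.36 and cth1 by -1.05. Of the genes that fell most, morc3b differed by -2.17, map1lc3c by -2.11, gdf3 by -1.66, rhoq by -1.32, nanog by -1.23, mctp2b by -1.20 and mixl1 by -1.14. The chemokine receptor genes cxcr4b and cxcr4a differed by -1.76 and -1.11, the claudin gene cldna by -1.52 and the interferon-induced gene isg15 by -1.51. All 15 were called lower with protein where no guides were given.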

How the results depend on the processing

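The count of genes called between protein and mRNA without guides was 3228; it became 1987 with a filter at a mean of 5 TPM, which tests fewer genes, and 8288 with no fold minimum. With szrd1 guides the corresponding counts were 1601 and 7539. The count for the difference of both effects was 96 with no filter, 233 under median-of-ratios scaling, 254 with no fold minimum and 31 without the 4 libraries labelled protein with reporter; apart from the fold minimum, the cause was not tested. Leaving out 1 library at a time gave 3064 to 3303 genes without guides, 2603 to 2720 with szrd1 guides and 46 to 191 for the difference. The 4 libraries labelled protein with reporter were left out only together. With the replicate number as a block the counts were 3238, 2589 and 147. Replicate numbers are not shown to pair the libraries, since replicate differences correlated between groups at -0.0777 to 0.15. Of 130 gene rows named, no fold change reversed under any alternative run. Calls were compared under the alternatives of this comparison, leaving out the one with no fold minimum. Over those gene and alternative pairs 1793 kept their call, 12 lost it and 7 gained it. With no fold minimum, genes not called for their size alone can pass, such as fgf8a at 0.77 (adjusted p 0.000564 from limma). List medians changed sign for organizer genes (-0.01 to 0.73), neural progenitors (-0.10 to 0.54) and RNA sensing (-0.18 to 0.23). Depth is unknown, and with 2 libraries a group, low genes and single members of a list are the least certain.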

Other observations

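Gene families grouped by the letters before the first digit of their symbols, with at least 15 members tested, gave values outside the lists above. Of 319 zinc finger genes whose symbol begins with znf followed by a digit, 72 were called lower with Cas13d protein (22.6%) and 9 higher (2.82%). Their median log2 fold change was -0.50 both without guides and with szrd1 guides. Of 44 histone genes with symbols beginning with hist, 11 were called lower (25%) and none higher, with a median of -0.66. Many histone genes are near-identical and their reads may be shared. The libraries were made from poly(A) RNA, so histone RNA without a poly(A) tail is not measured by these values. Of 15 anxa genes, which encode annexins, 5 were called higher (33.3%) and 2 lower, with a median of 0.44. A larger share rose among 27 genes with symbols beginning with arhgap. There 12 were called higher (44.4%) and 4 lower (14.8%), with a median of 0.59. The background was 11.1% higher and 10.8% lower over all genes tested. These families were chosen after their values were seen and were not tested as groups.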
